A study of Homo sapiens with 8 samples.

Results

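OVCAR3 cells in which endogenous RACK1 was replaced by a mutant RACK1 lacking its sites of mono(ADP-ribosyl)ation (MARylation) were compared by RNA-seq with cells in which it was replaced by wild-type RACK1. The members are the 4 of the 8 libraries of the series whose labels give a RACK1 genotype, 2 with wild-type RACK1 (RACK1-WT) and 2 with mutant RACK1 (RACK1-Mut). OVCAR3 is an established line of human ovarian carcinoma. Both groups carried a lentiviral shRNA against RACK1 (pTRIPZ) and a lentiviral RACK1 cDNA with an HA epitope tag (pInducer20), both induced by doxycycline (Dox). Dox was given to both groups at 1 µg/mL, and cells were harvested 48 h later, so knockdown and Dox exposure are shared by all 4 libraries and no library without Dox was in the comparison. The RNA came from clarified lysates that were also the input of ribosome profiling, and was depleted of rRNA before strand-specific libraries were made. Each genotype is 1 population of transduced and antibiotic-selected cells, so the mutation, the level of the introduced RACK1 and other differences between these populations cannot be told apart. The labels do not say whether replicates were separate cultures, and p-values measure only the spread between these libraries.

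RACK1 is a scaffold protein of the small ribosomal subunit, where it sits close to the mRNA exit channel and recruits kinases and translation factors. MARylation is the attachment of a single ADP-ribose to a protein, by PARP family enzymes such as PARP14, and TARG1 can remove it. Interferon-stimulated genes, which include several PARP genes, are antiviral genes that are switched on when interferon signaling activates a transcription factor complex that binds the interferon-stimulated response element in their promoters.

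The mutant RACK1 has 3 acceptor residues replaced (D144N, E145Q and D203N, counted from the initiator methionine). The reference codons of the first pair of these residues are shown in capitals within 30 bases of coding sequence, in the sense of the mRNA, to mark what differs between the introduced cDNAs. The bases are those of the reference and not of the mutant. RACK1 (ENSG00000204628) lies on the minus strand of chromosome 5 (GRCh37), and its protein has 317 residues. Codons 144 and 145 lie in a stretch that spans the junction of exons 3 and 4 (chr5:180666565-180668503, the intron left out).
RACK1 codons 144 and 145: tacactgtccagGATGAGagccactcagag

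The replaced gene itself was lower in RACK1-Mut cells. RACK1 exon alignments, which come from the endogenous and the introduced transcript together, were at 1780 and 1920 CPM (counts after scaling the libraries to one size) in the RACK1-WT libraries and at 1417 and 1461 CPM in the RACK1-Mut libraries. Both RACK1-Mut libraries were below both RACK1-WT libraries. The log2 fold change, here always RACK1-Mut minus RACK1-WT, was -0.36 (SE 0.07), and edgeR's quasi-likelihood test gave a Benjamini-Hochberg adjusted p of 0.0221. This call was lost when any 1 library was left out (log2 fold change -0.42 to -0.31, adjusted p 0.0546 to 0.371), with all 8 libraries of the series in the fit (adjusted p 0.295) and on coding sequence counts (adjusted p 0.092). Its alignments lay almost entirely over the coding sequence, with 1760 and 1903 CPM in RACK1-WT and 1397 and 1444 CPM in RACK1-Mut, which gives a ratio of 0.776. The 40 bases counted as 3′ UTR, which the introduced cDNA lacks by the cloning described, were at 19.2 and 15.9 CPM in RACK1-WT and at 19.1 and 15.9 CPM in RACK1-Mut, with a ratio of 0.999 and overlapping groups. The 409 bases counted as 5′ UTR were near 1 CPM in all 4 libraries.

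**Figure D1:**
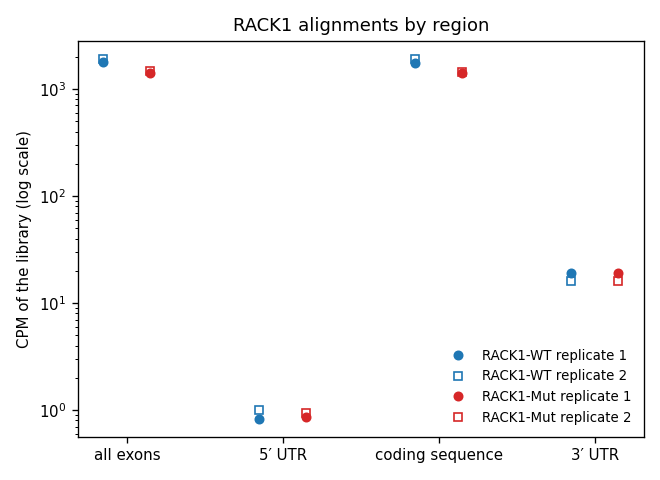
RACK1 alignments over all exons, 5′ UTR, coding sequence and 3′ UTR in each library, in CPM of the library on a log scale; blue is RACK1-WT, red is RACK1-Mut, filled circles are replicate 1 and open squares replicate 2. The RACK1-Mut libraries sit below the RACK1-WT libraries over all exons and the coding sequence, and the groups overlap over both UTRs.

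Exon counts summed to 30989049 and 34794710 in the RACK1-WT libraries and to 40245739 and 42668783 in the RACK1-Mut libraries, and 13606 genes had enough counts to be tested. Across these genes, log2 CPM correlated at r = 0.9963 between the RACK1-WT replicates, 0.9966 between the RACK1-Mut replicates and 0.9957 to 0.9962 between libraries of different groups. The markers of ovarian carcinoma and epithelium PAX8, EPCAM, WFDC2, KRT7, KRT8, KRT18 and CDH1 had from 5175 to 44277 counts in every library, while CLDN4 had 6 to 11. The T cell marker CD3E had 0 counts, the fibroblast marker DCN 1 to 5 and the leukocyte marker PTPRC 19 to 28. Other markers of the same list of other lineages had more counts, with 209 to 322 for COL1A1, 156 to 218 for CD68 and 111 to 181 for VWF.

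Few genes passed the threshold for a difference between the genotypes. At an adjusted p under 0.05, 49 genes were called, or 0.36% of those tested, of which 37 were lower in RACK1-Mut cells (0.272%) and 12 were higher (0.0882%). At an unadjusted p under 0.05 the directions were balanced, with 577 genes lower (4.24%) and 577 higher (4.24%). In all 49 genes the libraries of the groups did not overlap. Over all genes tested, both RACK1-Mut libraries were below both RACK1-WT libraries in 19.4% and above them in 18.4%. The 49 genes were picked by their p in the same 4 libraries, so the lack of overlap is no separate support. The genes called lower had a median log2 fold change of -0.45 (range -2.87 to -0.29), and 2 of them fell by more than 2-fold. The genes called higher had a median of 0.38 (range 0.28 to 0.70). The number of calls changed most when RACK1-Mut replicate 1 was left out. In such a fit a lone library stands for its group and is assumed to vary like the other group. How far the calls rest on the values of RACK1-Mut replicate 1 was therefore not tested. The log2 fold changes themselves moved both ways without RACK1-Mut replicate 1. That of OAS2 stayed at -0.63, and TRIM22 went from -0.41 to -0.47 and IRF8 from -0.49 to -0.60. SLC7A5 went from -0.51 to -0.29, KRT4 from -0.73 to -0.54 and CADM1 from 0.70 to 0.52. With all 8 libraries in the fit, 1 of the 49 genes, TTN, was called. All 49 genes kept their direction in every one of the 12 other settings that gave them a value. This is no added support, as without overlap no left-out library could turn it. Several other settings refit the same counts.

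**Figure D2:**
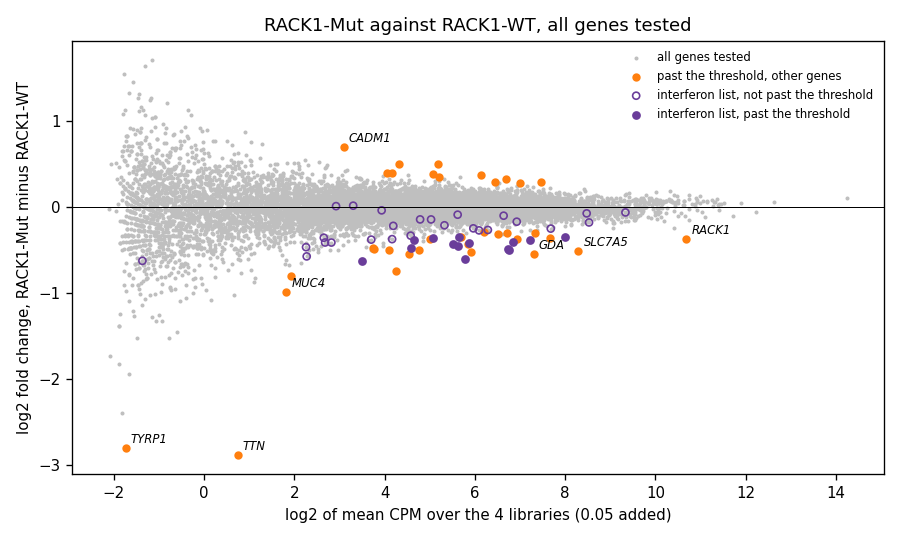
Log2 fold change (RACK1-Mut minus RACK1-WT) of each of the 13606 genes tested against the log2 of its mean CPM over the 4 libraries (0.05 added); grey points are all genes, orange points are genes called at an adjusted p under 0.05, filled violet points are called interferon-stimulated genes and open violet points are the other members of that list. Nearly all violet points lie below 0, and 14 of the 37 genes called lower are violet.

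Interferon-stimulated genes had the lowest median change of the 24 gene lists examined, and 14 of them fell in RACK1-Mut cells. Of 44 genes listed, 40 were tested, and 14 of the 40 (35%) were called lower, against 0.272% of all genes. None was called higher at an adjusted or an unadjusted p under 0.05, while 30 were lower at an unadjusted p under 0.05 (against 4.24% of all genes). Their log2 fold changes ran from -0.63 to 0.02 with a median of -0.35, where all genes had a median of 0.00, and 38 of the 40 were below 0 (49.3% of all genes were). Both RACK1-Mut libraries were below both RACK1-WT libraries in 36 of the 40 and above them in 0, against 19.4% and 18.4% of all genes. Summed over the list, the level was 3659 and 3630 CPM in the RACK1-WT libraries and 3023 and 3205 CPM in the RACK1-Mut libraries. Without RACK1-Mut replicate 1, 1 member was called lower (IFI27), although all 40 members were below 0, with a median of -0.32. Without any 1 of the other libraries 8 to 14 were called, on coding sequence counts 7, and with all 8 libraries in the fit 0, with 26 lower at an unadjusted p under 0.05. Fewer cells expressing these genes and less of their RNA per cell cannot be told apart in bulk RNA.

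The interferon-stimulated response element has the core GAAANNGAAA, and promoter sequences of called members are shown because most of them hold it. Promoters are those of RefSeq (GRCh38.p14), from 250 bases before to 50 bases after the start of the gene, and both strands were searched for the core. It was found in 9 of the 10 promoters at hand for the 14 called interferon-stimulated genes (90%) and in 20 of the 31 for all members tested (64.5%). In all genes tested it was found in 304 of 10615 promoters (2.86%). Of the genes called lower outside the list, 1 of 20 promoters held it (5%), that of TEP1, a component of telomerase and vault particles, and 0 of 8 promoters of genes called higher did. The 30 bases around the first match are given in the sense of the gene with the core in capitals, and with their position on GRCh37. A run that starts with TTTC is the core on the other strand. Those of IFI44L matched 2 places and are not shown. A match is a run of letters, and binding was not measured. As genes of this kind are switched on through this element, its share among them is no support drawn from these libraries.
IFIT1 (chr10:91152254-91152283, plus strand, 116 bases before the start): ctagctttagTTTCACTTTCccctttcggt
IFIT3 (chr10:91087588-91087617, plus strand, 156 bases before the start): agccgttaggTTTCATTTTCctcctcccaa
IFI6 (chr1:27998840-27998869, minus strand, 156 bases before the start): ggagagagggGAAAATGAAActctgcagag
IFI27 (chr14:94576964-94576993, plus strand, 108 bases before the start): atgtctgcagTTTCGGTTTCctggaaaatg
IFI44 (chr1:79115446-79115475, plus strand, 18 bases before the start): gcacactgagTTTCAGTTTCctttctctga
DDX60 (chr4:169239972-169240001, minus strand, 88 bases before the start): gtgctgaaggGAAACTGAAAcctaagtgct
HERC5 (chr4:89378135-89378164, plus strand, 125 bases before the start): ctcattacagTTTCCTTTTCcttttcgatt
MX1 (chr21:42792486-42792515, plus strand, 11 bases after the start): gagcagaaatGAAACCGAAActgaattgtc

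Among the transcription factors of the pathway, IRF7 fell. IRF7, which amplifies the type I interferon response, was at 26.7 and 29.7 CPM in RACK1-WT and at 20.9 and 22.4 CPM in RACK1-Mut (log2 fold change -0.38, SE 0.08, edgeR adjusted p 0.0344). Its groups did not overlap. STAT2, a part of the complex that binds the response element, had a log2 fold change of -0.10 with an adjusted p of 0.768, and IRF1 one of -0.21 with an adjusted p of 0.467. For IRF7 the adjusted p was 0.498 without RACK1-Mut replicate 1, 0.342 without RACK1-WT replicate 2 and 0.0969 with RACK1-Mut replicate 2 left out.

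The largest called changes of the list were in antiviral effectors. OAS2, which makes the 2′-5′ oligoadenylates that activate RNase L, was at 14.8 and 12.5 CPM in RACK1-WT and at 8.83 and 8.80 CPM in RACK1-Mut, a fall of 35.2% (log2 fold change -0.63, SE 0.11, edgeR adjusted p 0.00455). IFI27, an interferon-induced membrane protein, was at 66.8 and 66.7 CPM and at 40.7 and 47.3 CPM (-0.60, SE 0.07, edgeR adjusted p 4.5e-05). MX1, a dynamin-like GTPase that traps viral nucleocapsids, was at 130.0 and 123 CPM and at 84.8 and 94.5 CPM (-0.50, SE 0.06, edgeR adjusted p 1.3e-04). Each of these genes had all of its RACK1-Mut values below all of its RACK1-WT values, and only IFI27 stayed past the threshold whichever library was left out (adjusted p at most 0.0444). Without RACK1-Mut replicate 1 the adjusted p was 0.288 for OAS2 and 0.0522 for MX1, and for OAS2 it was 0.0882 without RACK1-Mut replicate 2 and 0.0667 without RACK1-WT replicate 1. MX1 shares 562 exon bases with TMPRSS2 on the other strand, which was at 0.373 to 0.674 CPM.

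Of the IFIT genes, whose products bind viral RNA, IFIT1 and IFIT3 fell, while IFIT2 and IFIT5 did not pass the threshold. IFIT1 was at 141 and 119 CPM in RACK1-WT and at 97.0 and 99.8 CPM in RACK1-Mut (log2 fold change -0.40, edgeR adjusted p 0.00454), and IFIT3 at 54.8 and 50.1 CPM and at 39.2 and 39.0 CPM (-0.42, edgeR adjusted p 0.0028). IFIT5 had -0.08 with an adjusted p of 0.827, and IFIT2, at 0.225 to 0.417 CPM, had -0.62 with an adjusted p of 0.777. IFI44L and IFI44, neighbours on chromosome 1, had log2 fold changes of -0.48 and -0.45, and IFI6, a mitochondrial and endoplasmic reticulum protein, one of -0.38. HERC6 and HERC5, of which HERC5 is the ligase that attaches ISG15, had -0.47 and -0.35, the restriction factor TRIM22 had -0.41 and the helicase DDX60 had -0.34, all at edgeR adjusted p-values under 0.05. Without RACK1-Mut replicate 1 none of these 9 genes past the threshold in this paragraph kept its call, with adjusted p-values from 0.0522 to 0.488. IFIT1, IFIT3 and HERC6 also lost theirs without RACK1-WT replicate 1 or RACK1-Mut replicate 2 (0.0594 to 0.239), TRIM22 without RACK1-Mut replicate 2 (0.0882), DDX60 without either RACK1-WT library (0.0826 and 0.0554) and HERC5 without any 1 library (0.0708 to 0.432). RIGI, the cytoplasmic sensor of viral RNA, was at 88.3 and 81.9 CPM and at 69.9 and 72.1 CPM, with an adjusted p of 0.0768 (log2 fold change -0.26). DHX58 and ISG20 were the 2 members above 0, at 0.02 each. ISG15, IFIH1 and IRF9 had no row matched to them alone, so none was tested under its own name. A row without a gene match was called lower, and whether such a row holds 1 of them was not examined.

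**Figure D3:**
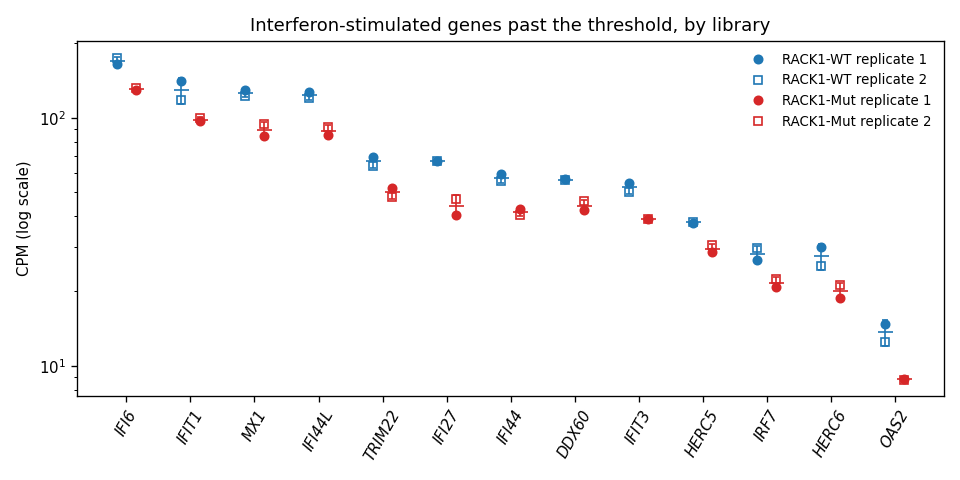
CPM (log scale) of 13 of the 14 interferon-stimulated genes called lower in RACK1-Mut cells, ordered by their mean in RACK1-WT; blue is RACK1-WT, red is RACK1-Mut, filled circles are replicate 1 and open squares replicate 2, and dashes with bars are the mean and SD over n = 2. In each gene both red points lie below both blue points.

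HLA-B, CD74 and IRF8, which are in none of the gene lists, were called lower, and HLA-C did not pass the threshold. HLA-B, a class I heavy chain, was at 100.1 and 103 CPM in RACK1-WT and at 81.9 and 81.8 CPM in RACK1-Mut (log2 fold change -0.31, SE 0.06, edgeR adjusted p 0.0131). CD74, the invariant chain of class II, was at 110 and 121 CPM and at 92.1 and 96.0 CPM (-0.30, SE 0.06, edgeR adjusted p 0.0303). Neither gene's groups overlapped. HLA-C had a log2 fold change of -0.03 (adjusted p 0.944). Class I genes are near copies of each other, and reads that match several places were kept, so their counts are uncertain. IRF8, a transcription factor of the interferon regulatory family known best from myeloid cells, was at 19.8 and 20.1 CPM and at 15.2 and 13.2 CPM (-0.49, SE 0.09, edgeR adjusted p 0.0108). Without RACK1-Mut replicate 1 the adjusted p was 0.288 for HLA-B, 0.488 for CD74 and 0.0749 for IRF8. With RACK1-Mut replicate 2 left out instead it was 0.0859, 0.101 and 0.158. Without RACK1-WT replicate 2 it was 0.143 for HLA-B and 0.428 for CD74.

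Of the genes of the unfolded protein and integrated stress responses, SLC7A5 and ASNS were called. Of 39 tested members, 2 were lower (5.13%, against 0.272% of all genes) and 0 higher, and 15 were lower and 1 higher at an unadjusted p under 0.05 (against 4.24% in each direction). The median log2 fold change was -0.11, and 32 of the 39 were below 0 (49.3% of all genes were). SLC7A5, the light chain of the large neutral amino acid transporter, was at 366 and 372 CPM in RACK1-WT and at 217 and 301 CPM in RACK1-Mut (log2 fold change -0.51, SE 0.09, edgeR adjusted p 0.00517). Its RACK1-Mut libraries lay far apart, and it was not called without RACK1-Mut replicate 1 (adjusted p 0.306) or with DESeq2 (adjusted p 1.00). ASNS, asparagine synthetase, was at 178 and 176 CPM and at 137 and 150 CPM (-0.30, SE 0.06, edgeR adjusted p 0.0221). Its adjusted p was 0.488 without RACK1-Mut replicate 1, without RACK1-WT replicate 1 it was 0.125 and without RACK1-WT replicate 2 it was 0.0826.

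Other members of this list had smaller differences that did not pass the threshold. PSAT1, an enzyme of serine synthesis, had a log2 fold change of -0.26 (adjusted p 0.0538), DDIT3, the stress transcription factor CHOP, had -0.28 (adjusted p 0.0782) and SLC3A2, the heavy chain that pairs with SLC7A5, had -0.23 (adjusted p 0.137). ATF4, the transcription factor of the integrated stress response, was at 324 and 328 CPM in RACK1-WT and at 315 and 316 CPM in RACK1-Mut (-0.05, adjusted p 0.915). The endoplasmic reticulum chaperone HSPA5 had -0.04 (adjusted p 0.931), and its co-chaperone DNAJB9 had 0.27 (adjusted p 0.200). The core TGATGNAA of the C/EBP-ATF response element was found in 5 of 35 promoters of this list (14.3%) and in 185 of 10615 promoters of all genes tested (1.74%). Among genes called lower 1 of 30 promoters held it (3.33%), and among genes called higher 0 of 8.

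Outside the interferon list, the lowest log2 fold changes among called genes were those of TTN, TYRP1, MUC4, the joined row of SAA2 and SAA4, and KRT4. TTN, the sarcomeric giant titin, had 101 and 86 counts in RACK1-WT and 9 and 23 counts in RACK1-Mut (log2 fold change -2.87, SE 0.29, edgeR adjusted p 6.4e-06) and stayed past the threshold whichever library was left out. The counts of TTN are spread over 109224 exon bases, with 0.026 CPM per kb in RACK1-WT and 0.0035 in RACK1-Mut. It was not tested where at least 10 counts were asked of every library. TYRP1, a melanosomal enzyme, had 11 and 18 counts against 4 and 1 (-2.80, SE 0.62, edgeR adjusted p 0.0394), and rests on these few alignments. The membrane mucin MUC4 was at 3.95 and 5.30 CPM in RACK1-WT and at 2.102 and 2.57 CPM in RACK1-Mut (-0.99, SE 0.18, edgeR adjusted p 0.00585). The keratin gene KRT4 was at 21.8 and 25.5 CPM and at 12.1 and 16.3 CPM (-0.73, SE 0.11, edgeR adjusted p 8.9e-04). None of these overlapped between the groups. The row that joins SAA2 and SAA4, which encode acute phase proteins, had -0.79 (edgeR adjusted p 0.0221), and its alignments cannot be assigned to 1 of the genes. The adjusted p without RACK1-Mut replicate 1 was 0.401 for TYRP1, 0.416 for MUC4, 0.299 for SAA2/SAA4 and 0.241 for KRT4. TYRP1, MUC4 and SAA2/SAA4 were also not called without RACK1-Mut replicate 2 or without RACK1-WT replicate 2. Without RACK1-WT replicate 2 their log2 fold changes were -2.48, -0.75 and -0.66.

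GDA, AHNAK2 and MALL fell by like fractions. GDA, the guanine deaminase that converts guanine to xanthine, was at 182 and 192 CPM in RACK1-WT and at 130.5 and 127 CPM in RACK1-Mut, a fall of 31.1% (log2 fold change -0.54, SE 0.06, edgeR adjusted p 2.1e-05). Its groups stood well apart, and it was called whichever library was left out (adjusted p at most 0.0286). AHNAK2, a very large scaffold protein, was at 71.1 and 71.2 CPM and at 46.9 and 52.5 CPM (-0.52, SE 0.07, edgeR adjusted p 1.3e-04). MALL, a MAL family membrane protein, was at 30.98 and 32.3 CPM and at 21.6 and 23.2 CPM (-0.50, SE 0.08, edgeR adjusted p 0.00164). AHNAK2 and MALL did not overlap between the groups either, and without RACK1-Mut replicate 1 their adjusted p-values were 0.0522 and 0.169. Of 47 tested genes of extracellular matrix and adhesion, 1 was called lower (2.13%, against 0.272% of all genes). At an unadjusted p under 0.05, 13 were lower and 1 higher (against 4.24% of all genes in each direction). Of the 47, 34 were below 0 (49.3% of all genes were). The called gene was the laminin chain LAMA3, at 133 and 143 CPM and at 100.3 and 113 CPM (-0.37, edgeR adjusted p 0.00472). Its log2 fold change was -0.29 without RACK1-Mut replicate 1 and -0.32 without RACK1-WT replicate 2, and neither fit called it.

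The remaining genes called lower had no list in common. RARRES2, which encodes the chemoattractant chemerin, had a log2 fold change of -0.47, the neural adhesion molecule L1CAM had -0.42, the lysosomal protease CTSL had -0.36, TEP1 had -0.34, and PNPT1, a mitochondrial RNA exonuclease, had -0.29. A row whose transcript identifier matched no gene of the annotation used had -0.36. Its gene was not identified, so it could be counted in no list. Whether it belongs to the interferon list was not examined. Their edgeR adjusted p-values ran from 0.00336 to 0.0437, and none was called without RACK1-Mut replicate 1 (0.0749 to 0.568).

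Of the 12 genes called higher in RACK1-Mut cells, CADM1, CLIC5 and SORCS1 had the highest log2 fold changes. On coding sequence counts, 0 of 12782 genes tested were called higher and 13 lower. The log2 fold changes of CADM1, CLIC5 and SORCS1 were 0.54, 0.47 and 0.47 there. DESeq2 called 4 genes higher. CADM1, an immunoglobulin family adhesion molecule, was at 6.81 and 6.08 CPM in RACK1-WT and at 11.7 and 9.22 CPM in RACK1-Mut, a rise of 62.6% (log2 fold change 0.70, SE 0.13, edgeR adjusted p 0.00708). CLIC5, a chloride intracellular channel protein, was at 30.6 and 29.5 CPM and at 45.9 and 39.4 CPM (0.51, SE 0.08, edgeR adjusted p 0.00143). SORCS1, a sorting receptor, was at 17.2 and 15.97 CPM and at 25.1 and 21.8 CPM (0.50, SE 0.09, edgeR adjusted p 0.00708). In all of these RACK1-Mut replicate 1 was the highest library, and without it none of them kept its call. Their log2 fold changes were then 0.52 for CADM1, 0.39 for CLIC5 and 0.40 for SORCS1. FZD7, a Wnt receptor, was at 15.3 and 15.6 CPM and at 19.8 and 21.1 CPM (0.41, edgeR adjusted p 0.0394), but was called in none of the fits that left out a library (adjusted p 0.0999 to 0.295).

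The tight junction gene CLDN3, the only 1 of 12 tested markers of ovarian carcinoma identity to be called (higher, against 0.0882% of all genes), was at 52.0 and 69.1 CPM in RACK1-WT and at 78.5 and 79.4 CPM in RACK1-Mut (log2 fold change 0.38, edgeR adjusted p 0.0394). Its RACK1-WT libraries lay further apart than its groups did at their nearest, and the adjusted p was 0.787 without RACK1-WT replicate 1, 0.545 with RACK1-Mut replicate 1 left out and 0.263 with RACK1-Mut replicate 2 left out. KCNJ12, an inward rectifier potassium channel, had a log2 fold change of 0.40, TMEM263 had 0.39, the circadian repressor BHLHE41 had 0.36, the claudin CLDN22 had 0.33, the homeobox gene LHX1 had 0.29, PRRG4 had 0.29 and the serine protease PRSS23 had 0.28, with edgeR adjusted p-values from 0.0221 to 0.0467. None of these 7 genes was called without RACK1-Mut replicate 1 (adjusted p 0.306 to 0.575), and each also lost its call without at least 1 of the other libraries. CLDN22 shares 2177 exon bases with WWC2 on the other strand, whose own log2 fold change was 0.00, and PRSS23 shares 1399 with FZD4, at 0.15 (adjusted p 0.578).

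**Figure D4:**
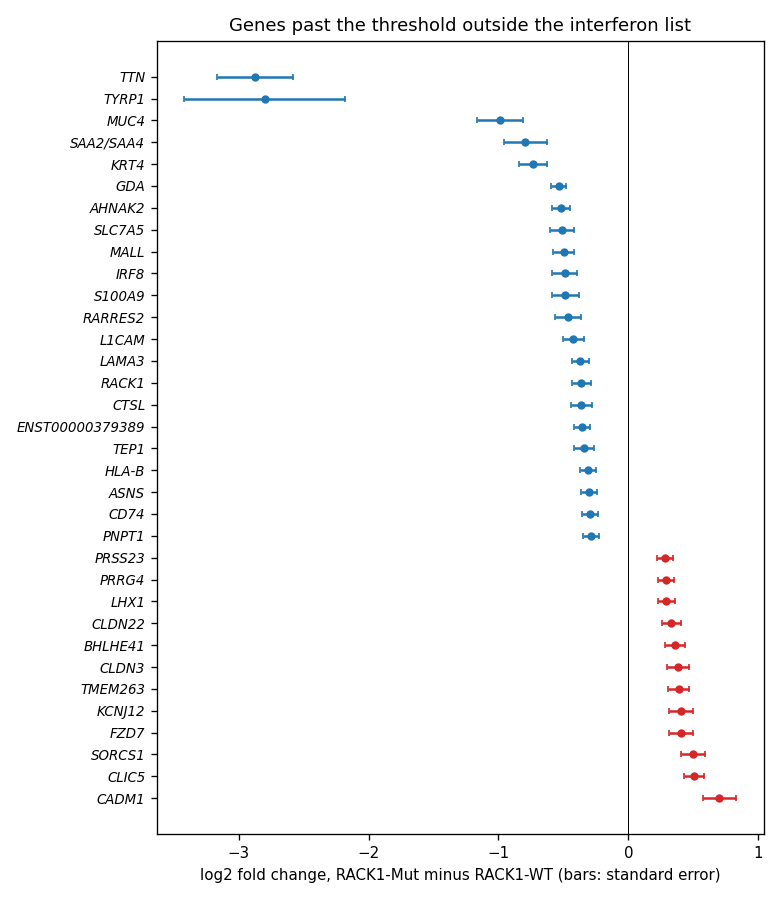
Log2 fold change (RACK1-Mut minus RACK1-WT, bars are the standard error) of the called genes not counted in the interferon list. Blue marks 22 of the 23 genes lower and red the 12 genes higher in RACK1-Mut cells. The entry named by a transcript identifier had no gene match, so whether it belongs to that list is not known. TTN and TYRP1 lie beyond a 2-fold change, and every other gene lies within it.

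The enzymes of the MARylation cycle were not called. Of 25 tested writers and erasers of ADP-ribose, 0 passed the threshold (0.36% of all genes did). At an unadjusted p under 0.05, 6 were lower and 1 higher (against 4.24% of all genes in each direction). PARP14, a mono(ADP-ribosyl) transferase, was at 386 and 397 CPM in RACK1-WT and at 335 and 360 CPM in RACK1-Mut (log2 fold change -0.17, SE 0.06, edgeR adjusted p 0.397). PARP9, which acts together with DTX3L, had the smallest p, at 225 and 221 CPM and at 182 and 193 CPM (-0.25, SE 0.06, edgeR adjusted p 0.0827). Both genes are also members of the interferon list, and neither overlapped between the groups. PARP12 and PARP10, which are of the same kind, had -0.29 (adjusted p 0.142) and -0.27 (adjusted p 0.174). OARD1, which encodes TARG1, was at 46.7 and 43.5 CPM and at 45.9 and 39.5 CPM, with overlapping groups and an adjusted p of 0.865. MACROD2, a hydrolase of mono(ADP-ribose), had 0.18 (adjusted p 0.397).

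Genes of the ribosome and of stress granules, where RACK1 acts, differed little. All 45 tested proteins of the large subunit had log2 fold changes above 0 and 27 of 28 of the small subunit did, each with a median of 0.07, but 0 had an unadjusted p under 0.05 and the replicates of RACK1-WT differed by a median of 0.09 and 0.08 in the same genes. RACK1-Mut replicate 1 had the highest summed level of large subunit genes, 57156 CPM, against 52836 in RACK1-Mut replicate 2 and 51061 and 53907 in RACK1-WT. Of 38 translation factors, 26 components of stress granules and 20 genes of ribosome collision and rescue, 0 had an unadjusted p under 0.05 in either direction (against 8.48% of all genes), and the medians were -0.01, 0.01 and 0.01. The smallest p among these belonged to ETF1, a release factor (-0.10, adjusted p 0.741), TIAL1, a stress granule RNA-binding protein (-0.13, adjusted p 0.723), and EIF4E2, a cap-binding repressor (0.12, adjusted p 0.655). Of 15 tested binding partners of RACK1, 1 was called lower (6.67%, against 0.272% of all genes), and the median was 0.00. Of 56 tested genes of receptor tyrosine kinase signaling 0 were called (0.36% of all genes were), and the median was 0.00. At an unadjusted p under 0.05, 3 were lower and 1 higher (against 4.24% of all genes in each direction). The collagen receptor DDR2 was the lowest in p there, at 5.81 and 5.82 CPM in RACK1-WT and 3.45 and 4.76 CPM in RACK1-Mut (-0.50, adjusted p 0.227).

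Among inflammatory genes, 0 of 24 tested NF-kB targets and cytokines were called (0.36% of all genes were). At an unadjusted p under 0.05, 4 were lower and 0 higher (against 4.24% of all genes in each direction). Of the 24, 21 had log2 fold changes below 0 (49.3% of all genes did), with a median of -0.11. The acute phase gene SAA1 was at 3.73 and 5.13 CPM in RACK1-WT and at 2.73 and 2.87 CPM in RACK1-Mut (-0.67, edgeR adjusted p 0.100), and CXCL10, a chemokine induced by interferon, at 4.75 and 3.57 CPM and at 2.70 and 2.73 CPM (-0.61, edgeR adjusted p 0.160). The groups of both genes did not overlap. S100A9, a calgranulin, was outside the list and was called, at 14.8 and 16.7 CPM and at 11.7 and 10.9 CPM (-0.48, SE 0.10, edgeR adjusted p 0.0247), but not without RACK1-WT replicate 2 (0.245), RACK1-Mut replicate 1 (0.306) or RACK1-Mut replicate 2 (0.197).

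No gene of the cell cycle lists was called. Of all genes tested, 0.36% were called, 49.3% were below 0, and 4.24% in each direction had an unadjusted p under 0.05. Of 52 tested genes of DNA replication and repair, 40 were below 0 and 8 lower at an unadjusted p under 0.05 (0 higher), with a median of -0.07. Of 40 mitotic genes, 34 were below 0 and 6 lower at an unadjusted p under 0.05 (0 higher), with a median of -0.05. The smallest p belonged to MCM3, a subunit of the replicative helicase (-0.18, adjusted p 0.317), and NDC80, of the kinetochore (-0.22, adjusted p 0.210).

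The other lists had no member called beyond AHNAK2 and TTN among 29 giant and sarcomeric proteins (6.90%, against 0.272% of all genes). Medians were -0.05 for 32 genes of cholesterol and fatty acid synthesis (smallest p: TM7SF2, 0.23), -0.02 for 30 of glycolysis and hypoxia (PFKP, -0.14), -0.04 for 26 of heat shock and oxidative stress (HSPA1A, 0.16), 0.02 for 29 immediate early genes (CCN1, -0.23), -0.06 for 20 histones (H2BC5, 0.21), 0.04 for 13 mitochondrially encoded genes (MT-CO2, 0.17), -0.01 for 70 mitochondrial ribosomal proteins (MRPS34, 0.20) and 0.12 for 7 markers of other lineages (PTPRC, -0.66). None of the genes in brackets passed the threshold.

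**Figure D5:**
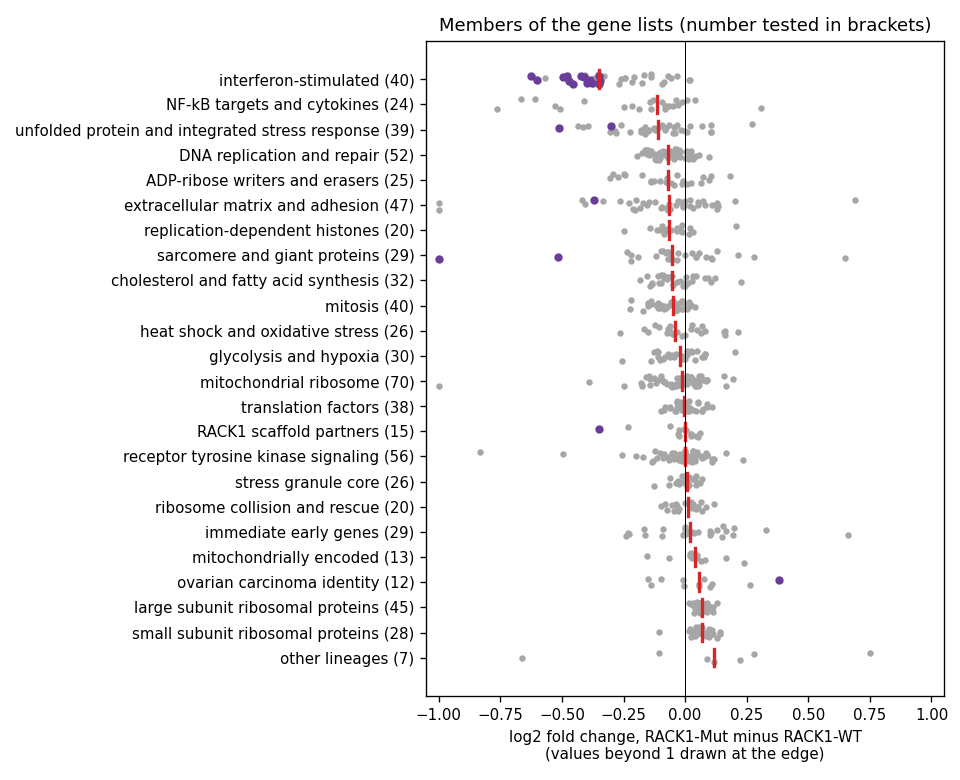
Log2 fold change (RACK1-Mut minus RACK1-WT) of every tested member of the 24 gene lists, with the number tested in brackets; violet points passed an adjusted p under 0.05, grey points did not, red bars are the medians and 4 values beyond 1 are drawn at the edge. The interferon-stimulated genes have the lowest median, -0.35, and the other medians lie between -0.11 and 0.12.

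The share of alignments over the 3′ UTR was compared with that over the coding sequence gene by gene, as a change in it would show transcripts of which the regions changed unequally. Of 11713 genes tested, 0 were called by edgeR's quasi-likelihood test, while 507 had an unadjusted p under 0.05 (4.33%), 406 with more and 101 with less 3′ UTR signal in RACK1-Mut. This balance turned without RACK1-WT replicate 2, to 213 with more and 375 with less, and was 1238 with more and 102 with less without RACK1-WT replicate 1. The log2 ratio of RACK1 itself was 0.37 higher in RACK1-Mut (SE 0.11, adjusted p 0.998). It was 0.18 without RACK1-WT replicate 2, 0.21 without RACK1-Mut replicate 1, 0.52 with RACK1-Mut replicate 2 left out and 0.56 without RACK1-WT replicate 1. In the last of these fits 66 genes were called, RACK1 among them, and without RACK1-WT replicate 2, 11 were. The share of exon counts over the 3′ UTR was 33.2% and 31.8% in the RACK1-WT libraries and 33.1% in both RACK1-Mut libraries, so RACK1-WT replicate 2 was the library that stood apart, and its part in these calls was not tested. By chromosome, the median log2 fold change lay between -0.03 and 0.02 for each autosome, and the medians of the RACK1-WT replicate differences lay between -0.03 and 0.07.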

How the data were processed

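RNA-seq of 4 OVCAR3 libraries (2 per group) was analysed; groups came from the genotype labels. Per the submitters' processing notes and the study's methods, the authors filtered contaminant reads with Bowtie 1.1.2 and aligned the rest with TopHat2 2.1.1 to GRCh37. They counted alignments of 25 to 51 bases per gene region with Plastid, keeping reads with up to 64 matches, so paralogs are uncertain. The deposited values used here are estimated counts, not normalized; the deposited RPKM was not used. Of 36595 transcript names, 94.7% matched Gencode v44 on GRCh37; rows without a match hold 1.16% of counts and rows joining several genes 4.15%.

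Counts were rounded and tested with edgeR 4.0.16 (limma 3.58.1, R 4.3.3): quasi-likelihood test, TMM, filterByExpr, group means, 2 residual degrees of freedom, Benjamini-Hochberg over all genes tested, threshold 0.05. CPM are TMM-scaled. Replicates differed by more than sampling noise. The region test used 3′ UTR and coding counts with the library as a block. Scripts were tested on simulated data. Precision is limited by 2 libraries per group more than by counting. Named genes were RACK1, the 12 highest and 12 lowest called genes without overlap, and in each list the called members (up to 4 by adjusted p) or else the smallest p; other named genes were chosen after their values were seen. The members and the 24 gene lists were chosen with earlier results of these data known. Alternatives were DESeq2 1.42.0, RLE normalization, other filters, all 8 libraries, a replicate block, rows summed by symbol, coding sequence counts and leaving out each library. Python 3.11.15 drew the plots. The results of some items that were tested are not reported here.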

Additional observations from a re-analysis of the deposited data

How the results depend on the processing

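The count of called genes, 49, became 29 with DESeq2 (25 lower, 4 higher), 131 with no filter on low counts, 117 with the replicate number as a block, 13 on coding sequence counts and 1 with all 8 libraries in the fit, and ranged from 3 to 57 when 1 library was left out, where the lone library of a group is assumed to vary like the other group. RLE normalization gave 40, at least 10 counts in every library 48 and rows summed by symbol 49. The interferon-stimulated genes called lower, 14, became 21 with no filter, 21 with the block, 7 on coding sequence counts and 0 with all 8 libraries, and ranged from 1 to 14 with 1 library left out; their median stayed between -0.36 and -0.27. The log2 fold change of RACK1 was -0.36 with all 8 libraries and -0.35 on coding sequence counts, with adjusted p-values of 0.295 and 0.092, and ranged from -0.42 to -0.31 with 1 library left out. Genes called in the region test ranged from 0 to 66 with 1 library left out, and the largest autosomal median in size, 0.0312, ranged from 0.0297 to 0.0512. Of the values of single named genes under the alternatives, 565 kept their side of the threshold, 215 fell short of it and 6 newly passed it; of the list medians 255 moved by less than the spread and 33 by more. No called value changed direction, which for groups without overlap was fixed beforehand when 1 library was left out. The causes were not tested.

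The numbers do not pair the libraries by the labels: the deviations of same-numbered libraries from their group means correlated at 0.0148 across genes, so the block with its 117 calls (49 of 49 kept) is no stronger evidence.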

Other observations

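The interferon-stimulated genes called lower in RACK1-Mut cells were also measured in the other OVCAR3 cells of the series, those transfected with a control siRNA, whose labels name no RACK1 construct and which belong to another experiment. With all 8 libraries scaled together, MX1 was at 387 and 291 CPM in the siControl libraries, at 128 and 121 CPM with RACK1-WT and at 83.2 and 93.7 CPM with RACK1-Mut. IFIT1 was at 570 and 490 CPM, at 139 and 117 CPM and at 95.1 and 98.9 CPM. IFI44L was at 549 and 496 CPM, at 125 and 118 CPM and at 83.3 and 91.3 CPM. IFI27 had another order, at 56.6 and 33.1 CPM in siControl, at 65.9 and 65.6 CPM with RACK1-WT and at 39.9 and 46.8 CPM with RACK1-Mut. These values cross experiments and were not tested.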
